A study of Mus musculus with 12 samples.

Results

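The genes described here encode the machinery by which a skeletal muscle fibre releases, pumps back and stores calcium in its sarcoplasmic reticulum. They are 10 genes chosen by name: Ryr1, Jph1 and Trdn of the release site, the calcium pumps Atp2a1 and Atp2a2, the pump regulators Sln and Pln, the lumenal calcium stores Casq1 and Casq2, and the cytosolic calcium buffer Pvalb. All 10 were found by symbol among the 43346 genes of the count table, and all 10 were among the 16146 genes with enough reads to be tested. They took between 4.26% and 6.91% of all reads of a library. Reads came from quadriceps, a large mixed muscle of the thigh, of C57BL/6 mice, in 12 stranded polyA libraries of 3 groups with 4 libraries each. D+Q mice were 24 months old and had been gavaged with dasatinib (5 mg/kg) and quercetin (50 mg/kg), a pair of compounds used as a senolytic, on 3 days in each 2 weeks from month 20. Old vehicle mice were also 24 months old and had received only the gavage vehicle, a mixture of ethanol, polyethylene glycol and Phosal 50, on the same schedule. Young mice were 6 months old and are given no gavage in the labels, so that age cannot be told apart from gavage when old vehicle is set against young. Whether each library came from a mouse of its own is not stated, nor is the sex of the mice, so each p-value reflects only how these libraries vary, which may be technical variation. The design asks what differed in aged muscle and whether D+Q altered it.

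A fibre contracts when an action potential reaches the triad, where the surface membrane faces the sarcoplasmic reticulum. A voltage sensor in that membrane opens the ryanodine receptor, calcium leaves the reticulum and the filaments slide. SERCA pumps then return calcium to the lumen at the cost of ATP, calsequestrin holds it there, and in fast fibres parvalbumin speeds relaxation by binding it in the cytosol. Sarcolipin and phospholamban are small membrane proteins that bind the pump and lower its effective uptake, and sarcolipin is known to let the pump spend ATP with less transport, which releases heat. Fast fibres use SERCA1 and calsequestrin 1, slow fibres and the heart rely on SERCA2, and calsequestrin 2 is found in the heart and in slow fibres.

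Levels are CPM, the reads of a gene scaled to a common library total. Library totals ran from 26715140 to 49792488 reads, which puts the value of 3 reads at 0.106 CPM in the shallowest library and 0.0561 CPM in the deepest. Skeletal muscle genes were high throughout, with Acta1, the muscle actin, at 7331 to 27206 CPM. Of 6 heart muscle genes, Nppa, Nppb, Myl7 and Mybpc3 stayed at or under 0.0680 CPM in every library, Tnni3 reached 0.565 CPM, and Myh6 had 6.69 to 28.7 CPM, a value that may hold reads of the near-identical slow myosin gene Myh7. Libraries differed in how level depended on gene length. The slope of log2 CPM, relative to each gene's mean, on log2 gene length was highest in young replicates 3 and 4, at 0.0325 and 0.0430, and lay between -0.0330 and 0.0256 in the other 10 libraries. Young replicates 3 and 4 also had the fewest reads, at 26715140 and 34340282, so length slope and depth cannot be told apart in them. Values without those 2 libraries are given beside each call they touch.

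Genes were called at an adjusted p under 0.05 in edgeR's quasi-likelihood test, with p-values adjusted over all tested genes by the Benjamini-Hochberg method. Between old vehicle and young, 1 of the 10 genes was called, Sln, which rose, against 1.86% of all tested genes called in either direction, 1.21% higher and 0.65% lower. Unadjusted p was under 0.05 for 3 of 10, against 16.0% of all genes, and 2 of 10 had groups apart from each other, 1 higher and 1 lower, against 9.36% of all genes (3.97% higher and 5.39% lower). The median log2 fold change of the 10 was -0.23, beside -0.010 over all tested genes, with 3 positive and 7 negative values. Between D+Q and old vehicle, none of the 10 was called, beside 0% of all tested genes. Here 0 of the 10 had an unadjusted p under 0.05, against 2.16% of all genes, 0 had groups that did not overlap, against 2.17% (1.05% higher and 1.12% lower), and DESeq2 and limma-voom called 0 of the 10 as well. The median log2 fold change was 0.06, beside 0.01 over all genes. Between D+Q and young, none of the 10 was called, against 0.892% of all tested genes (0.526% called higher), although 3 of 10 had an unadjusted p under 0.05 (17.8% of all genes) and 2 of 10, 1 higher and 1 lower, had groups that did not overlap (6.69% of all genes, 2.86% higher and 3.83% lower). D+Q against young shares its libraries with the other 2 comparisons, and its values are given only side by side with theirs.

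**Figure D1:**
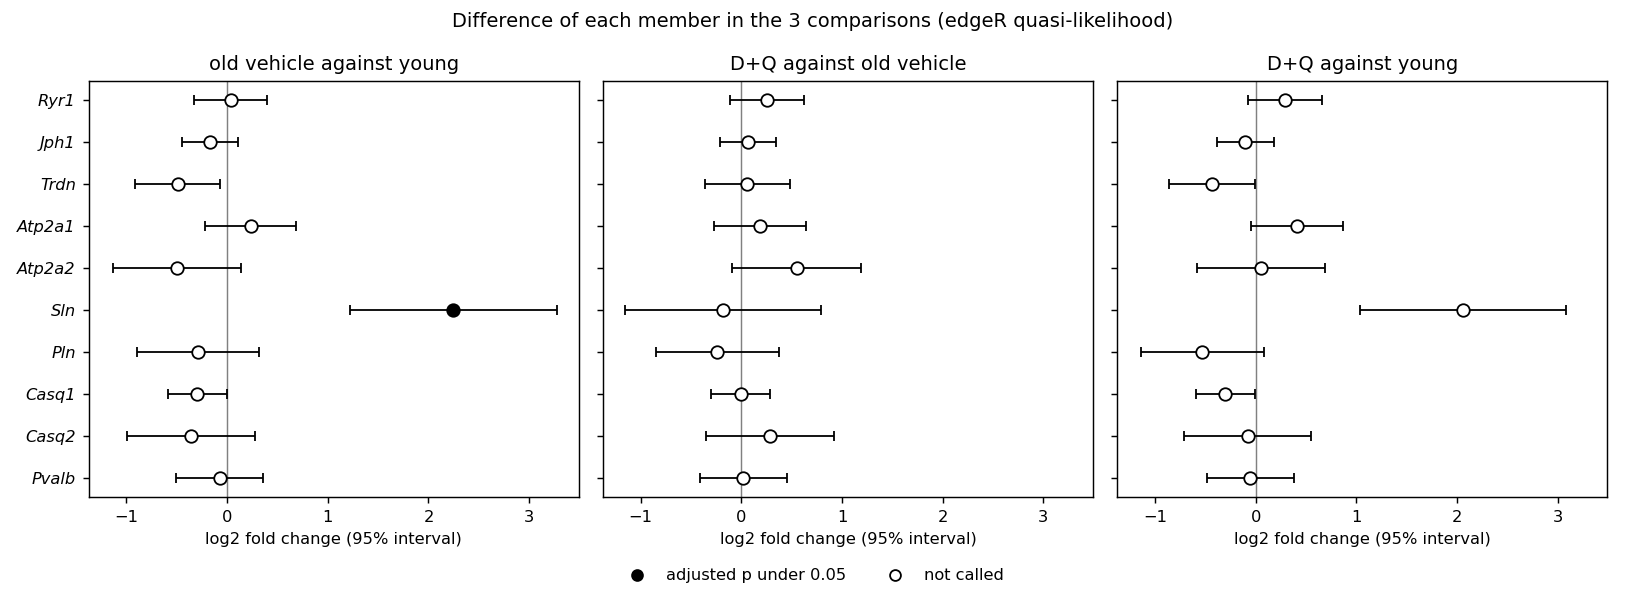
Log2 fold change of each of the 10 genes on the horizontal axis with its 95% interval, in 3 panels for old vehicle against young, D+Q against old vehicle, and D+Q against young (n = 4 libraries a group); filled points have an adjusted p under 0.05. The 1 filled point is Sln in old vehicle against young, at 2.24, and every interval in D+Q against old vehicle spans 0.

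Sln encodes sarcolipin, a pump regulator that in mice is found mainly in the atria and in slow, oxidative muscles and is scarce in adult fast muscle. Of the 10 genes it had the largest fold change between old vehicle and young. Sarcolipin is one of a family of very small membrane proteins that meet the pump, and the coding sequences of the members of that family followed here are shown to let their short reading frames be compared. They are from GENCODE M21 on GRCm38, 5′ to 3′ on the coding strand, with the start and stop codons in capitals.

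Sln: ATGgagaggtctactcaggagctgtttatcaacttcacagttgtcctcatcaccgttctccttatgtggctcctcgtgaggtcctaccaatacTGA

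Pln: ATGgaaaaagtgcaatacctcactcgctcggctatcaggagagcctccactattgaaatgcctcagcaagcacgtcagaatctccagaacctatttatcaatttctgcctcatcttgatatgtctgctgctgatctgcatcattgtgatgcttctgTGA

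Mrln: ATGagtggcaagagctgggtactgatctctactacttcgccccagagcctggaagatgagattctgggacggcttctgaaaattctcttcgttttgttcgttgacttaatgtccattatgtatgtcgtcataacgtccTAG

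Strit1: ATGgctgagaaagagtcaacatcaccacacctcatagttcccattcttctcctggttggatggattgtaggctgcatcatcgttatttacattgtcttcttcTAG

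The open reading frame of Sln holds 31 codons before its stop, that of Pln 52, that of Mrln, which encodes the pump inhibitor myoregulin, 46, and that of Strit1, which encodes DWORF, a peptide that counters the inhibitors, 34. Sln lies on chromosome 9 (chr9:53850251-53853844, mm10) and Pln on chromosome 10 (chr10:53337686-53345999).

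Sln stood at 22.6, 21.8, 70.5 and 23.1 CPM in D+Q replicates 1 to 4, at 35.0, 43.8, 45.8 and 31.9 CPM in old vehicle and at 16.8, 6.42, 5.46 and 4.17 CPM in young. The lowest old vehicle library was above the highest young library, and so was the lowest D+Q library, while D+Q spanned old vehicle on both sides: 3 D+Q libraries lay under all 4 old vehicle libraries and 1, replicate 3, lay above them. The young libraries held 722, 288, 154 and 147 reads of Sln, so counting error is small beside the spread between libraries. Mean levels were 34.5 ± 24.0 CPM in the D+Q libraries, 39.1 ± 6.72 CPM in old vehicle and 8.22 ± 5.81 CPM in young (SD, n = 4). Sln was 4.74-fold higher in old vehicle than in young, a log2 fold change of 2.24 ± 0.47 SE with a 95% interval of 1.22 to 3.27 (edgeR adjusted p = 0.0322). In bulk tissue, a change in the number of cells that express a gene and a change in RNA per cell cannot be told apart.

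The direction held in every setting tried, and the call did not. In old vehicle against young, Sln was called in 12 of 20 other settings and not in 8. DESeq2 gave an adjusted p of 3.37e-05 there and limma-voom one of 0.0162. Leaving out young replicate 3 gave an adjusted p of 0.107, young replicate 4 gave 0.0851, and old vehicle replicates 1, 2, 3 and 4 gave 0.0624, 0.0782, 0.0843 and 0.0643 (edgeR). Without young replicate 1 the value was 2.87 (adjusted p = 0.0115) and without young replicate 2 it was 2.11 (adjusted p = 0.0392). With young replicates 3 and 4 both left out, a choice made after seeing the data, the log2 fold change was 1.75 (edgeR adjusted p = 0.261). D+Q set against young gave 2.06 ± 0.47 SE, with an adjusted p of 0.0643 in edgeR and 0.000358 in DESeq2, so it was called in the second and missed in the first. D+Q against old vehicle gave -0.18 with a 95% interval of -1.15 to 0.79 (edgeR adjusted p = 0.9999). Without D+Q replicate 3 that difference was -0.80 (edgeR adjusted p = 0.9998).

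Since young libraries stood apart in Sln, its relation to slow fibre markers was computed within the 8 libraries of old mice, a choice made after seeing the data. There log2 CPM of Sln and the log2 summed level of 9 slow fibre genes had a Pearson r of 0.39 (exact permutation p = 0.339) and a Spearman rho of 0.36 (exact permutation p = 0.389), and both adjusted p-values over the 10 genes were above the threshold, at 0.738 and 0.649. Without the 2 libraries farthest from the median slow fibre sum r was -0.60, so the sign of the relation rests on them. The 4 young libraries are too few for a correlation. Over all 12 libraries the Pearson r of Sln with the slow fibre sum was 0.07 (permutation p = 0.836). In D+Q and in old vehicle alike, replicate 3 had both the most Sln of its group and the highest slow fibre sum, at 4562 CPM for D+Q and 3463 CPM for old vehicle. The D+Q one had the highest sum of all 12 libraries, with the other 11 at 1237 to 3590 CPM, and the part of fibre makeup in its Sln value was not tested.

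Pln encodes phospholamban, the pump inhibitor of heart and slow muscle, and it was the least abundant of the 10. Its level was 3.51, 4.85, 6.94 and 3.55 CPM in the D+Q libraries, 4.67, 6.13, 7.59 and 3.87 CPM in old vehicle and 6.29, 4.43, 7.80 and 8.73 CPM in young. The 3 groups overlapped in every pairing. Its log2 fold change was -0.29 ± 0.28 SE in old vehicle against young (edgeR adjusted p = 0.585), -0.24 in D+Q against old vehicle and -0.53 in D+Q against young. Pln lies within Cep85l, which is transcribed from the opposite strand and had 0.635 to 1.84 CPM, and since the strand setting of the counting is not given, reads of the 2 genes may not be fully separated. Per kilobase of the deposited gene length, Sln was 33.2 ± 11.4 times the level of Pln in D+Q, 34.8 ± 4.41 times in old vehicle and 6.38 ± 4.77 times in young (SD, n = 4). This ratio depends on the gene model: with the exon lengths of GENCODE M21 it was 14.45 ± 4.95 in D+Q, 15.1 ± 1.92 in old vehicle and 2.77 ± 2.07 in young (SD, n = 4).

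Mrln averaged 48.7 CPM in the D+Q libraries, 37.0 CPM in old vehicle and 45.3 CPM in young. All 4 D+Q libraries, at 41.0 to 53.1 CPM, were above all 4 old vehicle libraries, at 36.4 to 37.5 CPM, and the difference was not called (log2 fold change 0.40 ± 0.21 SE, unadjusted p = 0.0767, edgeR adjusted p = 0.9999). Strit1 had 0.883, 3.26, 3.22 and 2.37 CPM in the D+Q libraries, 1.22, 1.56, 2.55 and 1.13 CPM in old vehicle and 2.61, 2.65, 2.77 and 4.22 CPM in young. Every old vehicle library was under every young one, by a log2 fold change of -0.93 ± 0.37 SE that was not called (edgeR adjusted p = 0.252), and D+Q reached across both.

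Camk2b encodes the beta subunit of the calcium and calmodulin dependent kinase that phosphorylates proteins of the release and uptake machinery. It was the 1 called gene among 69 other calcium handling genes. Of all tested genes, 1.86% were called in old vehicle against young and 0.892% in D+Q against young. It stood at 361, 311, 322 and 251 CPM in the D+Q libraries, 235, 265, 346 and 344 CPM in old vehicle and 140, 204, 138 and 141 CPM in young. Both old groups were above every young library, and they overlapped each other. Camk2b rose 1.91-fold in old vehicle against young (log2 fold change 0.94 ± 0.17 SE, edgeR adjusted p = 0.0142). It rose 2.00-fold in D+Q against young (log2 fold change 0.999 ± 0.17 SE, edgeR adjusted p = 0.0176), and D+Q against old vehicle gave 0.06 ± 0.17 SE. In old vehicle against young it was called in 15 of 20 other settings and not in 5, with an adjusted p of 1.51e-05 in DESeq2 and 0.0149 in limma-voom. There the adjusted p was 0.0550 without young replicate 1, 0.0575 without young replicate 3, 0.0552 without old vehicle replicate 3 and 0.176 without young replicates 3 and 4 (edgeR). In D+Q against young it was between 0.0533 and 0.0687 without young replicate 1, 3 or 4 or D+Q replicate 2 or 3, and 0.204 without young replicates 3 and 4.

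**Figure D2:**
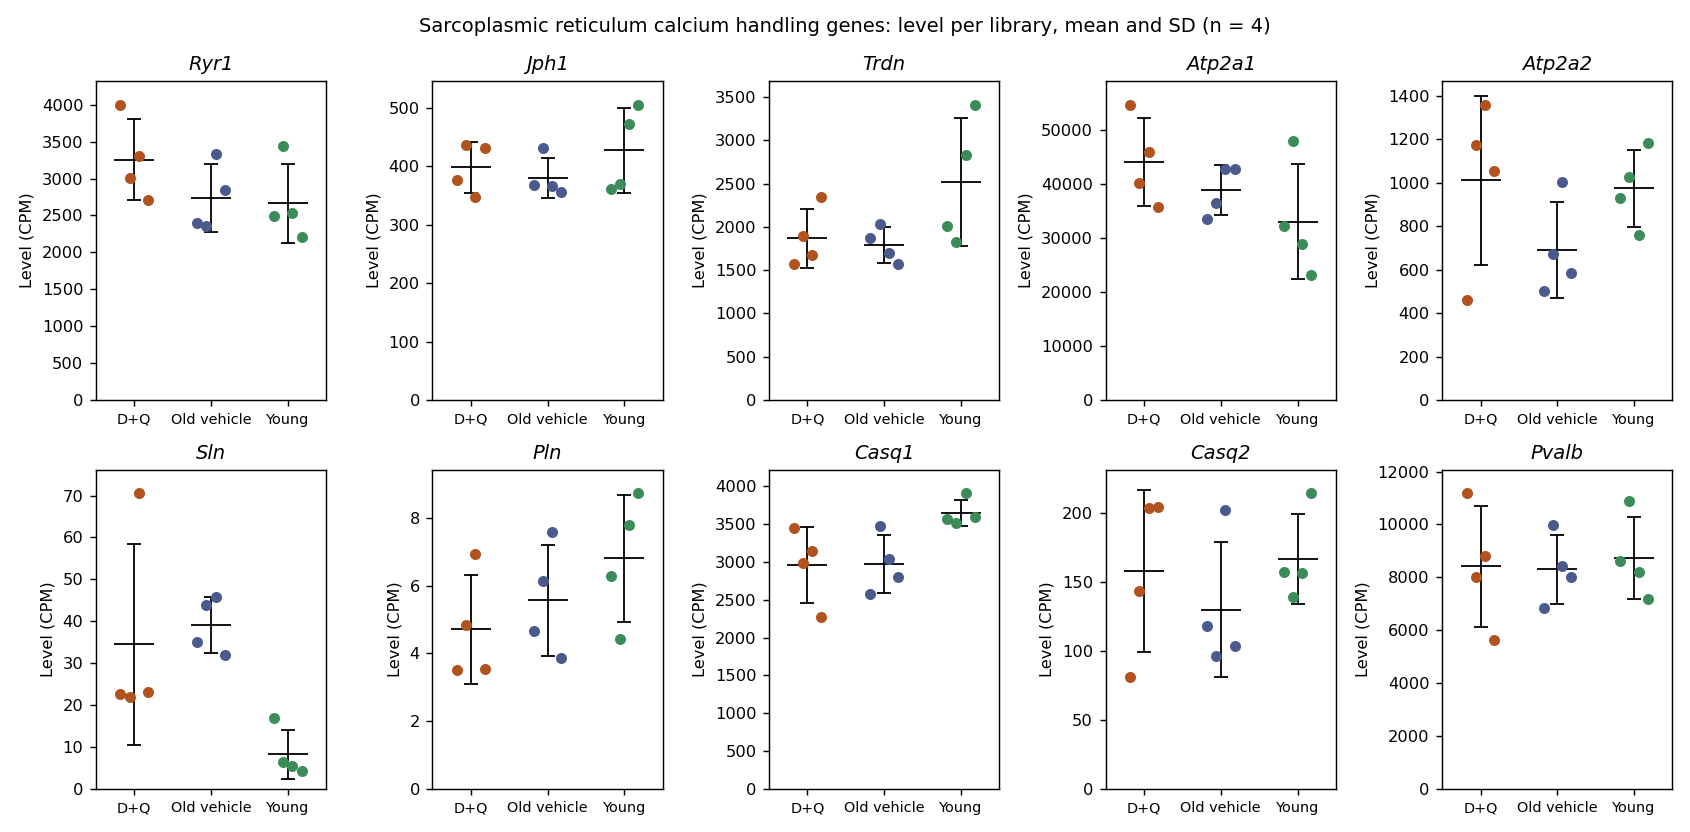
Level of each of the 10 genes in CPM on the vertical axis, by group (D+Q, old vehicle and young, left to right); points are libraries, and the line and bars are the mean and SD of 4 libraries. Sln of both old groups lies at 21.8 CPM or above while young reaches 16.8 CPM, the 4 young Casq1 values lie above both old groups, and the other 8 genes overlap.

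Compared per length, the 10 genes spanned a wide range of levels. Atp2a1 averaged 11083 CPM per kilobase over the 12 libraries and Pvalb 8147, and their ranges over libraries overlapped. Casq1 followed at 1637 CPM per kilobase and Trdn at 456, each apart from its neighbours in every library. Ryr1 at 188, Atp2a2 at 169, Jph1 at 80.3 and Casq2 at 55.5 CPM per kilobase each overlapped the next gene in order, down to Sln at 53.0, and Pln at 2.30 was apart from all others. Sln ran from 8.09 to 137 CPM per kilobase, 16.9-fold from the lowest to the highest library, while each of the other 9 genes varied by 1.45- to 2.95-fold. These lengths are those of the deposited gene models: Sln is given 515 bases there and 1318 exon bases in GENCODE M21, Trdn 4514 and 9352, and Ryr1 15371 and 21838, and with the GENCODE lengths Ryr1, at 132 CPM per kilobase, came after Atp2a2, at 147. The other 8 genes kept their places with those lengths, Trdn at 220 and Sln at 20.7 CPM per kilobase, but the ranges of Trdn and Atp2a2, and those of Sln and Pln, then overlapped.

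**Figure D3:**
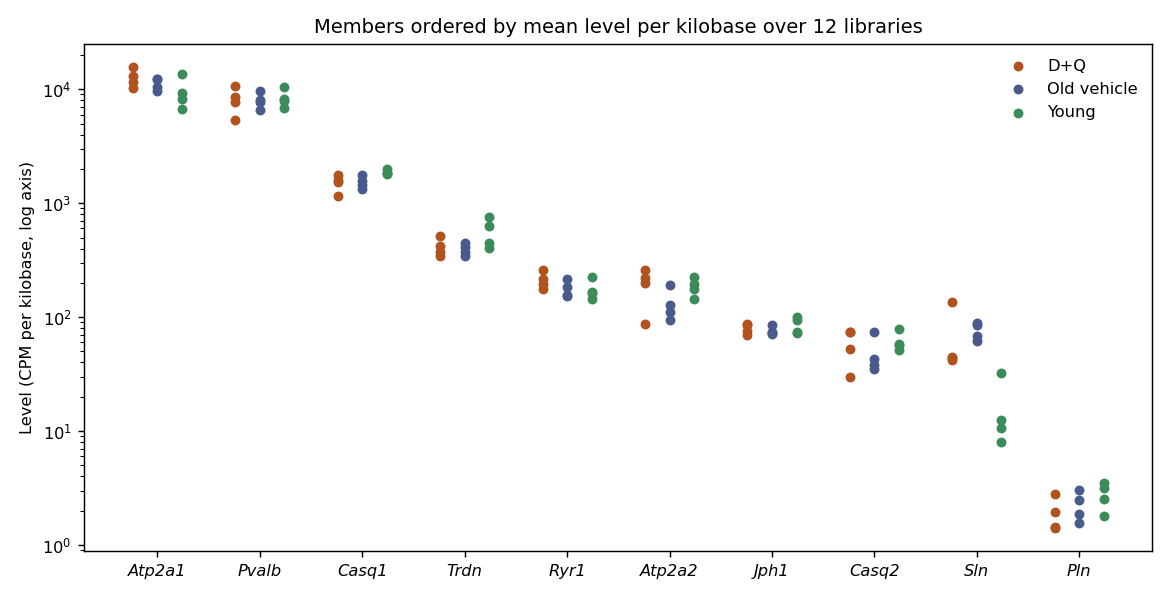
Level in CPM per kilobase on a log axis for the 10 genes, ordered by their mean over 12 libraries; points are libraries, with D+Q, old vehicle and young from left to right within each gene. Atp2a1 and Pvalb stand highest, Pln lowest near 2.30, and Sln is the gene whose 3 groups spread most, from 8.09 to 137.

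Atp2a1 encodes SERCA1, the pump of fast fibres, and was the most abundant of the 10. It had 54594, 40034, 45792 and 35624 CPM in the D+Q libraries, 33479.8, 36372, 42672 and 42638 CPM in old vehicle and 32098, 47879, 28846 and 23178 CPM in young. The groups overlapped, with the highest value in D+Q replicate 1 and the lowest in young replicate 4. The log2 fold change was 0.23 ± 0.21 SE in old vehicle against young (edgeR adjusted p = 0.562), 0.18 ± 0.21 SE in D+Q against old vehicle and 0.42 ± 0.21 SE in D+Q against young (edgeR adjusted p = 0.302). Without young replicate 2 the last of these was 0.62 (edgeR adjusted p = 0.0406). That fit called 1935 of all 16314 tested genes, against 144 of 16146 with all libraries. Atp2a1 lies at chr7:126445858-126463108, and its end overlaps Rabep2, which had only 2.10 to 4.92 CPM.

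Atp2a2, at chr5:122442702-122502225, encodes SERCA2, the pump of slow fibres and heart. Its level was 461, 1173, 1359.9 and 1055 CPM in the D+Q libraries, 503, 672, 1005 and 587 CPM in old vehicle and 931, 1027, 759 and 1183 CPM in young. In D+Q, 3 libraries were above all 4 old vehicle libraries, D+Q replicate 1 was below all of them, and old vehicle replicate 3 lay within the young range. In log2 terms the difference was -0.50 ± 0.29 SE in old vehicle against young (edgeR adjusted p = 0.406) and 0.55 ± 0.29 SE in D+Q against old vehicle (unadjusted p = 0.0858, edgeR adjusted p = 0.9999). D+Q against young gave 0.05 ± 0.29 SE. Leaving out single libraries moved the D+Q against old vehicle value between 0.37 and 0.79. As a share of both pumps per length, Atp2a2 made up 1.57% ± 0.677 in D+Q, 1.15% ± 0.281 in old vehicle and 2.05% ± 0.821 in young (SD, n = 4).

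Slow fibre genes moved with Atp2a2. The 9 genes, among them the slow myosin Myh7 and the slow light chain Myl2, summed to 1427, 3365, 4562 and 2351 CPM in the D+Q libraries, 1237, 1536, 3463 and 1725 CPM in old vehicle and 2518, 3590, 1615 and 2381 CPM in young. Across the 12 libraries the log2 level of Atp2a2 and the log2 slow fibre sum had a Pearson r of 0.89 (permutation p = 0.00034, Benjamini-Hochberg adjusted over the 10 genes 0.0034) and a Spearman rho of 0.80 (permutation p = 0.00255, adjusted 0.0255). Without the 2 libraries farthest from the median of the slow fibre sum r was 0.83. Within the 8 libraries of old mice r was 0.94 (exact permutation p = 0.00203, adjusted 0.0203). There rho was 0.88 (exact permutation p = 0.00724), with an adjusted p of 0.0724 that is above the threshold. None of the 9 slow fibre genes was called in any of the 3 comparisons, but all 9 had a positive log2 fold change in D+Q against old vehicle, with a median of 0.54, and 8 of 9 a negative one in old vehicle against young, with a median of -0.34. The part of fibre makeup in the Atp2a2 differences was not tested.

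**Figure D4:**
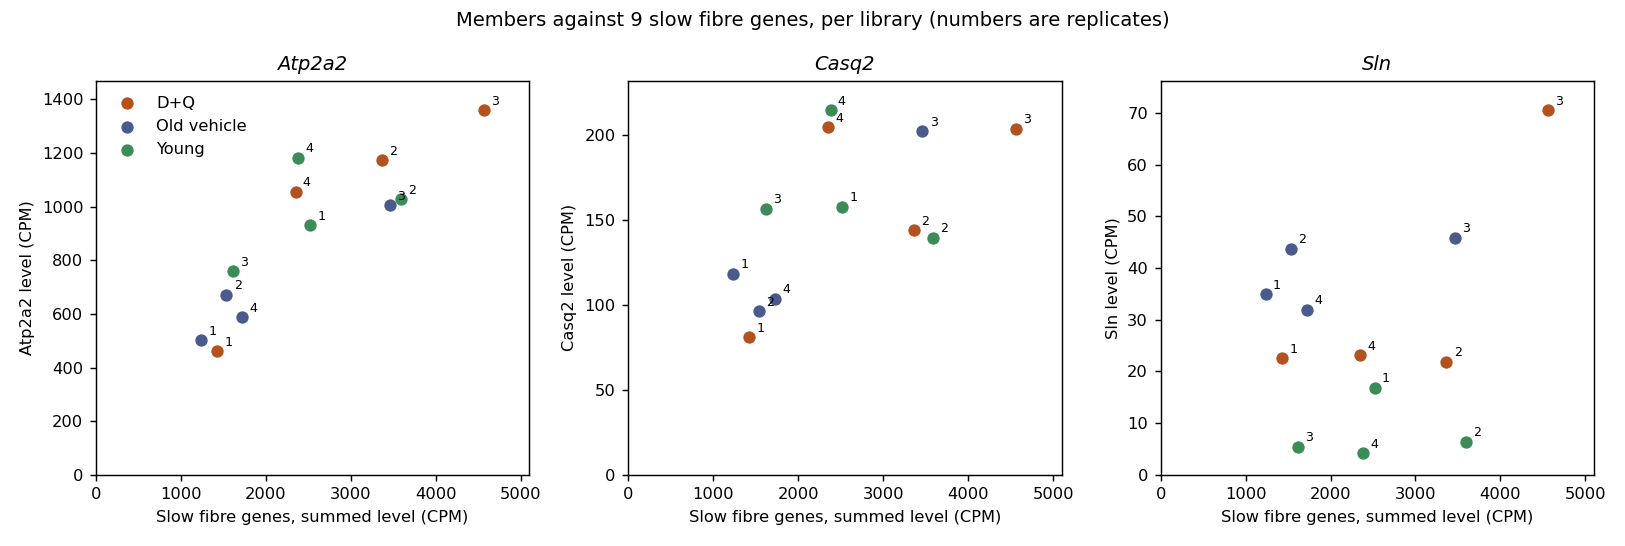
Level in CPM of Atp2a2, Casq2 and Sln on the vertical axes against the summed level in CPM of 9 slow fibre genes; each point is a library, numbered by replicate and coloured by group. Atp2a2 rises along the axis (r = 0.89 on the log2 scale), Casq2 does so less tightly (r = 0.67), and the 4 young libraries lie under the 8 others in Sln over a slow fibre sum of 1615 to 3590 CPM.

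Ryr1 encodes the ryanodine receptor, the release channel of skeletal muscle, and lies at chr7:29003340-29125151. It had 3999.5, 3009, 3303 and 2716 CPM in the D+Q libraries, 2395, 2360.5, 3337 and 2839 CPM in old vehicle and 2489.9, 3439, 2534 and 2203 CPM in young. The groups overlapped throughout. Fold changes on the log2 scale were 0.04 ± 0.17 SE in old vehicle against young, with a 95% interval of -0.33 to 0.40, 0.25 ± 0.17 SE in D+Q against old vehicle and 0.29 ± 0.17 SE in D+Q against young (edgeR adjusted p = 0.921, 0.9999 and 0.341). The first of these changed sign in 4 of 20 other settings.

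Jph1 encodes junctophilin 1, which holds the reticulum against the surface membrane. Levels were 377, 436, 347 and 431 CPM in the D+Q libraries, 367, 430.3, 366 and 355 CPM in old vehicle and 361, 370.0, 472 and 505 CPM in young. The 2 highest values were those of young replicates 3 and 4, and the groups overlapped. The log2 fold change was -0.17 ± 0.13 SE in old vehicle against young and 0.07 ± 0.13 SE in D+Q against old vehicle (edgeR adjusted p = 0.502 and 0.9999), and without young replicates 3 and 4 the first was 0.05.

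Trdn encodes triadin, which anchors calsequestrin at the release channel. It stood at 1569, 1892, 1669.6 and 2339 CPM in the D+Q libraries, 1875, 2036, 1695 and 1567 CPM in old vehicle and 2008, 1829.5, 2835 and 3410.5 CPM in young. Again young replicates 3 and 4 were the highest of the 12, and young replicates 1 and 2 lay among the old libraries. The log2 fold change of old vehicle against young was -0.49 ± 0.19 SE (unadjusted p = 0.0261, edgeR adjusted p = 0.248), and that of D+Q against young -0.43 ± 0.19 SE (edgeR adjusted p = 0.274). Without young replicates 3 and 4 these were -0.10 and -0.04.

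Levels of 5 of the 10 genes moved with the length slope of the libraries, at a permutation p adjusted over the 10 genes under 0.05. The smallest r of these 5 was 0.696 in size, a cutoff set by the genes themselves. Of all tested genes, from which the slope itself is computed, 45.9% had an r of at least that size. The median size of r was 0.576 for the 10 genes and 0.653 for all tested genes. Across the 12 libraries the Pearson r of log2 level with that slope was 0.89 for Trdn and 0.82 for Jph1, and -0.83 for Ryr1, -0.92 for Atp2a1 and -0.70 for Pvalb, with permutation p-values adjusted over the 10 genes between 0.0002 and 0.0222. Spearman's rho was 0.88, 0.66, -0.83, -0.92 and -0.71 in the same order, with adjusted p-values between 0.0006 and 0.0428. Without the 2 libraries farthest from the median slope, r was 0.83, 0.77, -0.73, -0.88 and -0.61. For Sln r was -0.46 (adjusted p = 0.225) and for Casq1 -0.06 (adjusted p = 0.864). With the slope as a covariate, a choice made after seeing the data, Sln stayed called in old vehicle against young at 2.11 (edgeR adjusted p = 0.00935) and Trdn became called lower at -0.32 (edgeR adjusted p = 0.0227). That fit called 1934 of all 16146 tested genes, against 300 without the covariate, and its covariate is computed from the same levels.

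Casq1 encodes calsequestrin 1, the main lumenal calcium store of fast fibres, and lies at chr1:172209894-172219868. It had 3453, 2986, 3143 and 2268 CPM in the D+Q libraries, 2577, 3469.7, 3042 and 2795 CPM in old vehicle and 3573, 3522, 3908 and 3589 CPM in young. All 4 young libraries were above all 8 old libraries, by a small margin: the highest old value was 3469.7 CPM and the lowest young value 3522 CPM. Means were 2963 ± 502 CPM in the D+Q libraries, 2971 ± 383 CPM in old vehicle and 3648 ± 176 CPM in young (SD, n = 4). The difference was not called in either comparison, with a log2 fold change of -0.30 ± 0.14 SE in old vehicle against young (unadjusted p = 0.0477, edgeR adjusted p = 0.305) and -0.30 ± 0.14 SE in D+Q against young (edgeR adjusted p = 0.274). D+Q against old vehicle gave -0.0040 with a 95% interval of -0.30 to 0.29.

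Casq2, a calsequestrin found in heart and slow fibres, was at 81.1, 144, 204 and 204 CPM in the D+Q libraries, 118, 96.2, 202 and 104 CPM in old vehicle and 158, 139, 157 and 214 CPM in young. The groups overlapped, and the spread within D+Q covered both other groups but for 1 young library. For Casq2 the log2 fold change was -0.36 ± 0.29 SE in old vehicle against young and 0.28 ± 0.29 SE in D+Q against old vehicle (edgeR adjusted p = 0.523 and 0.9999). As a share of both calsequestrins per length, Casq2 made up 3.85% ± 1.85 in D+Q, 3.05% ± 1.10 in old vehicle and 3.17% ± 0.630 in young (SD, n = 4). Its r with the slow fibre sum was 0.67 (permutation p = 0.0206, adjusted over the 10 genes 0.103; rho 0.57, adjusted p = 0.297), and 0.62 without the 2 farthest libraries.

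Pvalb encodes parvalbumin, the calcium buffer of fast fibres, at chr15:78191114-78206400. Its level was 11175, 8024, 8819 and 5626 CPM in the D+Q libraries, 6835, 9982, 8412 and 8001 CPM in old vehicle and 8626, 10887, 8203 and 7186 CPM in young. Both the highest and the lowest library were D+Q, and the 3 means differed by less than the SD of any group: 8411 ± 2288 CPM in the D+Q libraries, 8308 ± 1301 CPM in old vehicle and 8725 ± 1563 CPM in young (SD, n = 4). The log2 fold change was -0.07 ± 0.20 SE in old vehicle against young, with a 95% interval of -0.50 to 0.36, and 0.02 ± 0.20 SE in D+Q against old vehicle (edgeR adjusted p = 0.863 and 0.9999).

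Other genes of calcium handling were followed in 8 lists of 69 genes, all found and tested. Between old vehicle and young, Camk2b was the 1 called gene of the 69, against 1.86% of all tested genes. An unadjusted p under 0.05 was found for 21 of the 69 (16.0% of all tested genes had one). Of the 69, 35 were positive and 34 negative, and the median log2 fold change was 0.0041, beside -0.010 over all tested genes. For 8 of the 69 the old vehicle and young libraries were apart, against 9.36% of all tested genes. Camk2b, Camk2d, Itpr1 and Stim1 were the 4 higher in old vehicle and Ryr3, Strit1, Srl and Ppp3cc the 4 lower (Camk2d, Itpr1, Ryr3 and Ppp3cc are named after their values were seen). Stim1, the calcium sensor of the reticulum that opens entry from outside, was at 348 to 405 CPM in the D+Q libraries, 333 to 410.2 CPM in old vehicle and 271 to 324 CPM in young, with a log2 fold change of 0.30 ± 0.10 SE in old vehicle against young (edgeR adjusted p = 0.145). Srl, which encodes the lumenal protein sarcalumenin, was at 2245 to 2449 CPM in the D+Q libraries, 2105 to 2297 CPM in old vehicle and 2440.1 to 2837 CPM in young (-0.26 ± 0.09 SE, edgeR adjusted p = 0.182). In old vehicle against young, Stim1 was called in 2 of 20 other settings and Srl in 1. DESeq2, which called 749 genes in all there, gave Stim1 an adjusted p of 0.0194.

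At the triad, Cacna1s, the pore of the voltage sensor, gave a log2 fold change of 0.03 ± 0.16 SE in old vehicle against young, and Jph2, the second junctophilin, gave 0.07 ± 0.23 SE (edgeR adjusted p = 0.925 and 0.889). Asph, whose products include junctin, a partner of triadin, had -0.34 ± 0.12 SE (edgeR adjusted p = 0.183), and Hrc, a calcium-binding protein of the lumen, 0.22 ± 0.10 SE (edgeR adjusted p = 0.295). Asph was called in 1 of 20 other settings. Of the 12 genes of the voltage sensor and junction, 4 had an unadjusted p under 0.05 (3 higher, 1 lower), against 16.0% of all tested genes. The largest log2 fold change was 1.22 for Cacng1 (named after its values were seen). Its level was 266 ± 80.8 CPM in old vehicle and 114 ± 49.3 CPM in young (SD, n = 4), and these groups overlapped. None of the 12 was called, and their median was 0.16. The list medians ran from -0.21 for 6 genes of calcium extrusion at the surface to that value, with 0.02 for 16 release channels and modulators, -0.04 for 7 pump regulators and kinases, -0.12 for 4 lumenal proteins, 0.04 for 8 genes of store-operated entry, -0.15 for 9 of calcineurin and NFAT and 0.12 for 7 of mitochondrial uptake.

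Between D+Q and old vehicle, none of the 69 was called by edgeR, DESeq2 or limma-voom, 0 had an unadjusted p under 0.05, 49 were positive and 20 negative, and the median was 0.04, beside 0.01 over all genes. For 2 of the 69, Mrln and Ryr2, the libraries were apart, both higher in D+Q, against 2.17% of all tested genes in either direction and 1.05% higher (Ryr2 is named after its values were seen). Ryr2, the heart release channel, had no more than 0.623 CPM in any library. Between D+Q and young, Camk2b was the 1 called gene, against 0.892% of all tested genes. There 16 of 69 had an unadjusted p under 0.05, against 17.8% of all tested genes, and the groups did not overlap for 6, against 6.69%.

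**Figure D5:**
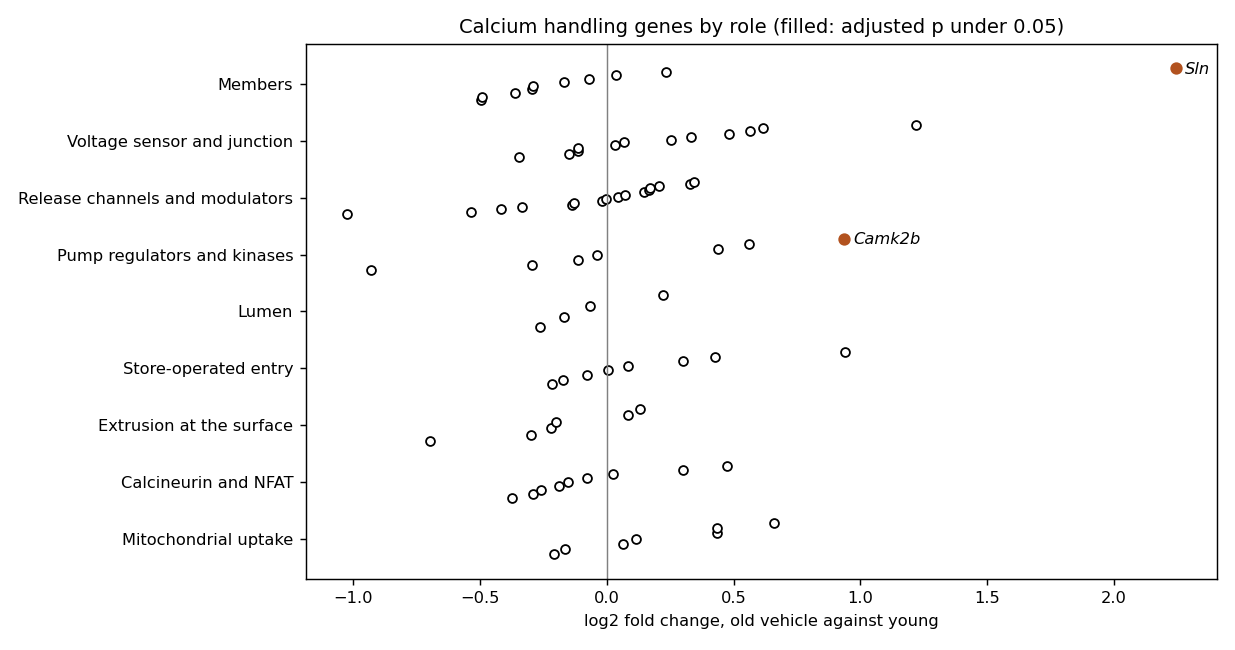
Log2 fold change of old vehicle against young for the 10 genes (top row, members) and 69 other calcium handling genes in 8 lists by role; each point is a gene and filled points have an adjusted p under 0.05. Sln at 2.24 and Camk2b at 0.94 are the filled points, and the rest lie between -1.02 and 1.22.

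Fast fibre genes gave a mixed background for these values. Myh1, the fast 2X myosin, was at 7928 to 8396 CPM in the D+Q libraries, 8224 to 10041 CPM in old vehicle and 5398 to 6681 CPM in young. It was called higher in old vehicle against young (log2 fold change 0.62 ± 0.11 SE, edgeR adjusted p = 0.0114, and 0.0877 without young replicates 3 and 4). Myh4, the fast 2B myosin, gave -0.25, Myh2, the 2A myosin, 0.06 and Myh7 -0.11 in the same comparison, none of them called.

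For each of the 10 genes, up to 2 of the tested genes whose log2 CPM followed it most closely over the 12 libraries are given by Pearson r. The ranking, from the highest r down, carries no test. It covered tested protein-coding genes other than the 10, with predicted genes, clone-named genes and pseudogenes left out. Atp2a2 was followed by 2 slow fibre genes of the list above, Myoz2 (r = 0.98) and Myl2 (r = 0.97). Ryr1 was followed by Azin2 (r = 0.97) and Cacna1s (r = 0.96), Trdn by Ano5 (r = 0.99), Jph1 by Ago2 and Cbfb (r = 0.95 each), and Atp2a1 by the glycolytic enzyme Aldoa (r = 0.99) and Pskh1 (r = 0.98). Closest to Pvalb were Emid1 and the phosphorylase kinase subunit Phkg1 (r = 0.94 each), and closest to Casq1 were Il12a (r = 0.90) and the cardiac actin Actc1 (r = 0.90). Sln was nearest to Ass1, an enzyme of the urea cycle (r = 0.93), and Crhr2, a receptor for urocortins (r = 0.92), Casq2 to Prkch (r = 0.89) and Cntrl (r = 0.87), and Pln to Rbx1 (r = 0.86) and Emx2 (r = 0.84). All these values share the same 12 libraries, and for genes that track the length slope they share that as well.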

How the data were processed

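Quadriceps RNA was prepared as stranded polyA libraries, per the labels' protocols. Per the submitters' processing notes, STAR 2.6.1c, Subread and featureCounts 1.5.1 were used with mm10. What each tool did, the annotation and the strand setting were not given in the sources used here. Whole-number counts of reads per gene, as deposited by the authors, entered every test. They also deposited RPKM values with gene lengths and positions, which gave lengths and positions and a second computation of the shares per length. Each library's counts over length were proportional to 1 deposited RPKM column of its group, with a coefficient of variation of 0.0727%.

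Samples were grouped by their labels. The tests were made with edgeR 4.0.16 (R 4.3.3), using filterByExpr (minimum count 10, total 15), TMM scaling and 1 quasi-likelihood fit of group means over all 12 libraries. P-values were Benjamini-Hochberg adjusted over all tested genes, and standard errors are the log2 fold change over the square root of F. The test was tried on simulated counts with known changes. Alternatives were DESeq2 1.42.0, limma-voom (limma 3.58.1), leaving out each library, a replicate block, fits of 2 groups, robust shrinkage, and other filters and scalings. A fit without 2 young libraries and one with the length slope as covariate were added after seeing the data. Correlations across libraries used log2(CPM + 0.5) and 100000 permutations, two-sided, or all orders of the libraries for the 8 of old mice. Chi-square values of 20.1 to 309 per gene between libraries of a group gave no sign of a library deposited again. The 10 genes, the other lists and the rule for named genes were chosen with earlier results of these data known. Named are the 10 genes, up to 6 called genes of the other lists per comparison, a fixed set of triad, lumen and fibre genes, and the 2 closest genes to each of the 10, of which 1 is not reported here.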

Additional observations from a re-analysis of the deposited data

Results flagged for a closer look

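In each of 36 groups of 4 libraries (10 genes and 2 shares in 3 groups) the highest and the lowest library were compared with the rest by Dixon's criterion, which chance meets in about 1 in 20 groups. In 3 of them 1 library stood apart. Sln had 70.5 CPM in D+Q replicate 3, while the other 3 D+Q libraries had 21.8 to 23.1 CPM. Atp2a2 made up 0.552% of both pumps per length in D+Q replicate 1, against 1.89% to 1.92% in the other 3. Jph1 had 430.3 CPM in old vehicle replicate 2, against 355 to 367 CPM in the other 3.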

How the results depend on the processing

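Over up to 20 other settings per result, Sln and Camk2b stayed higher in old vehicle than in young in all of them, while Sln was called in 12 of 20 and Camk2b in 15 of 20. The replicate block gave Sln an adjusted p of 0.0544 and Camk2b 0.0617 in that comparison (edgeR). Same-numbered libraries had correlations of -0.68 to 0.62, so the numbers were not taken to pair them. No setting called any of the 10 genes or of the 69 others in D+Q against old vehicle.

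Counts of calls moved most. For all genes in old vehicle against young (300) they were 749 in DESeq2, 188 with only the 2 groups, 141 with the replicate block, 80 without young replicates 3 and 4, 1934 with the length slope as covariate, and 146 to 1022 when single libraries were left out, the highest without young replicate 2. In D+Q against old vehicle (0) DESeq2 called 12. In D+Q against young (144) they were 578 in DESeq2, 25 with only the 2 groups, 35 with the block, 15 without young replicates 3 and 4, 1004 with the length slope, and 44 to 1935 with single libraries left out. Of the 10 genes, old vehicle against young (1) had 0 with the block, 0 without young replicates 3 and 4, 2 with the length slope and 0 to 1 with single libraries left out. D+Q against young (0) had 1 without the filter, in DESeq2 and with the length slope, and 0 to 2 with single libraries left out. Of the 69 others, old vehicle against young (1) had 2 by library totals, 5 in DESeq2, 0 with the block, 0 without young replicates 3 and 4, 16 with the length slope and 0 to 6 with single libraries left out. D+Q against young (1) had 4 in DESeq2, 0 with only the 2 groups, with the block and without young replicates 3 and 4, 12 with the length slope, and 0 to 9 with single libraries left out. Fewer samples enter the fits with 2 groups or without libraries, and the cause of the other shifts was not tested.

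Small log2 fold changes turned sign. Without young replicates 3 and 4, old vehicle against young gave Ryr1 -0.12, Jph1 0.055, Atp2a1 -0.044, Pln 0.051, Cacna1s -0.12, Jph2 -0.20 and Myh2 -0.083, and D+Q against young gave Jph1 0.12 and Casq2 0.090. With the length slope, old vehicle against young gave Ryr1 -0.059, Cacna1s -0.062, Jph2 -0.068 and Myh2 -0.033, D+Q against old vehicle gave Pvalb -0.070, and D+Q against young gave Jph1 0.014 and Casq2 0.021. Pvalb in D+Q against old vehicle was -0.052 by library totals, -0.012 in limma-voom and -0.0035 with the block, and Atp2a2 in D+Q against young -0.037 in limma-voom and -0.056 with the block. Leaving out single libraries gave, in old vehicle against young, Pvalb -0.17 to 0.031, Myh7 -0.70 to 0.24, Jph2 -0.050 to 0.24, Myh2 -0.11 to 0.17, Ryr1 -0.075 to 0.16 and Cacna1s -0.049 to 0.14. In D+Q against old vehicle it gave Pvalb -0.16 to 0.17, Camk2b -0.034 to 0.15, Casq1 -0.093 to 0.10 and Trdn -0.069 to 0.13, and in D+Q against young Pvalb -0.23 to 0.098, Atp2a2 -0.12 to 0.28 and Casq2 -0.23 to 0.12. Leaving out single libraries gave Atp2a2 shares per length of 1.45% to 1.91% in D+Q, 1.03% to 1.24% in old vehicle and 1.66% to 2.28% in young. For Casq2 the shares were 3.13% to 4.59%, 2.56% to 3.42% and 2.86% to 3.31% in the same order. Deposited RPKM values are these counts over length, so shares from them are no separate check. No scaling moved the median over all genes by more than 0.1.

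With 4 libraries a group the intervals of D+Q against old vehicle leave room for changes up to the bounds given. Reads were few for Strit1, at 37 to 149 a library. Pln had 147 to 308, a range that also holds the Sln reads of young replicates 2 to 4.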
